A study of Mus musculus with 10 samples.

Results

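Transforming growth factor beta (TGF-beta) receptors, SMADs and feedback genes were followed in T cell acute lymphoblastic leukemia (T-ALL) of the mouse. Sorted cells from mice given tamoxifen, to delete a calcineurin gene, or oil were compared. The genes followed are 10 of the 12736 tested. They are the receptors Tgfbr1 and Tgfbr2, the signal carrier Smad3, the inhibitors Smad7, Pmepa1 and Ldlrad4, the corepressors Ski, Skil and Tgif1, and the responsive gene Tsc22d1. They were read by 30 of the 45101 probe sets, being every row that the platform annotation gives to exactly 1 of these symbols. The genes were chosen by their differences between tamoxifen-treated and oil-treated samples in these same data, so those differences are given as a description, with no test.

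ICN1, a NOTCH1 fragment that is active without ligand, had induced all the leukemias, and both groups carried the ROSCreERT2 transgene together with CnB1 floxed alleles in 2 copies. CreERT2 is a recombinase that tamoxifen switches on, and CnB1 encodes the regulatory subunit of calcineurin, now named Ppp3r1. Secondary recipients that had become leukemic received tamoxifen, by which CnB1 is deleted (TAM, 5 arrays), or corn oil, which leaves it in place (OIL, 5 arrays). Marrow with over 50% leukemic cells was sorted for GFP or a similar marker, and 200 ng of total RNA was labelled. The age of the mice was not given, and since only 1 group received tamoxifen, an effect of the drug itself and one of the deletion cannot be told apart. Each group held the replicate labels 204, 206, F3.1, F3.2 and F3. Separate mice are not stated for the single arrays, and p-values therefore measure the spread between these samples only.

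TGF-beta binds the type II receptor (Tgfbr2), which activates the type I receptor (Tgfbr1). The type I receptor phosphorylates SMAD proteins, among them Smad3, which enter the nucleus with Smad4 and act on genes together with other factors. The pathway induces several of its own inhibitors, so that their transcripts are often read as a sign of its activity, and in T cells it is known for restraining division and activation.

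The arrays differed in ways that touch these genes. The first principal component (41.9% of the variance) separated labels 204 and 206 from the F3 labels, and the second (18.0%) separated OIL from TAM except for OIL F3, which lay among the TAM arrays at -6.90. Differences without OIL F3 are therefore given for the representative probe set of each of the 10 genes, and for a few other genes. For genes given without such a value, OIL F3 can matter as well. The closest arrays were those of OIL F3.1 and OIL F3.2, with r = 0.997. Ppp3r1, the deleted gene, went from 5.32 ± 0.58 log2 units (OIL) to 3.26 ± 0.21 (TAM) at 1421786_at and from 9.80 ± 0.09 to 9.67 ± 0.04 at 1433591_at, its other probe set (SD, n = 5). Whether they read the deleted exons was not determined here.

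Of 10 T cell leukemia markers, 9 had a probe set, none of them dim, and their summed linear level was 31085 to 34815 in OIL and 30945 to 37123 in TAM. Granulocyte markers, with 1 of 7 dim (Mpo), summed to 222 to 1381 in OIL and 374 to 2635 in TAM, with OIL F3 the highest of its group. Macrophage markers, with 2 of 8 dim (C1qb and Mrc1), summed to 254 to 299 and 280 to 369. Stroma markers, with 4 of 7 dim (Col1a1, Col3a1, Cxcl12 and Lum), summed to 243 to 2835 and 337 to 3544. Pdgfrb, at a mean of 9.998 log2 units in OIL and 10.65 in TAM, carried that sum, and the other 2 that were not dim, Lepr and Sparc, had means of 5.33 to 5.97. Limma called 0 of the 39 tested markers of 9 lists without or with the replicate label as a block (5 and 9 at an unadjusted p under 0.05). Over all 12736 genes tested, 1656 and 2847 were at an unadjusted p under 0.05. In such sorted bulk samples fewer cells of a type and less RNA per cell cannot be told apart, and the part of granulocyte transcripts in the results was not tested.

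The representative probe set, the one with the highest mean for its gene, was higher in TAM than in OIL for 9 of the 10 genes and lower for Ski. The median difference was 0.42 log2 units, against -0.03 over all genes tested, of which 41.0% were higher. The largest differences were those of Tsc22d1 (2.49), Pmepa1 (1.06) and Skil (0.98). Of the 10 genes, 6 were higher in TAM in each of the 5 labels (Smad3, Pmepa1, Ldlrad4, Skil, Tgif1 and Tsc22d1), a pattern that 8.4% of all genes shared. Among these representative probe sets only that of Pmepa1 had every TAM array above every OIL array, as 1.27% of all genes had.

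**Figure D1:**
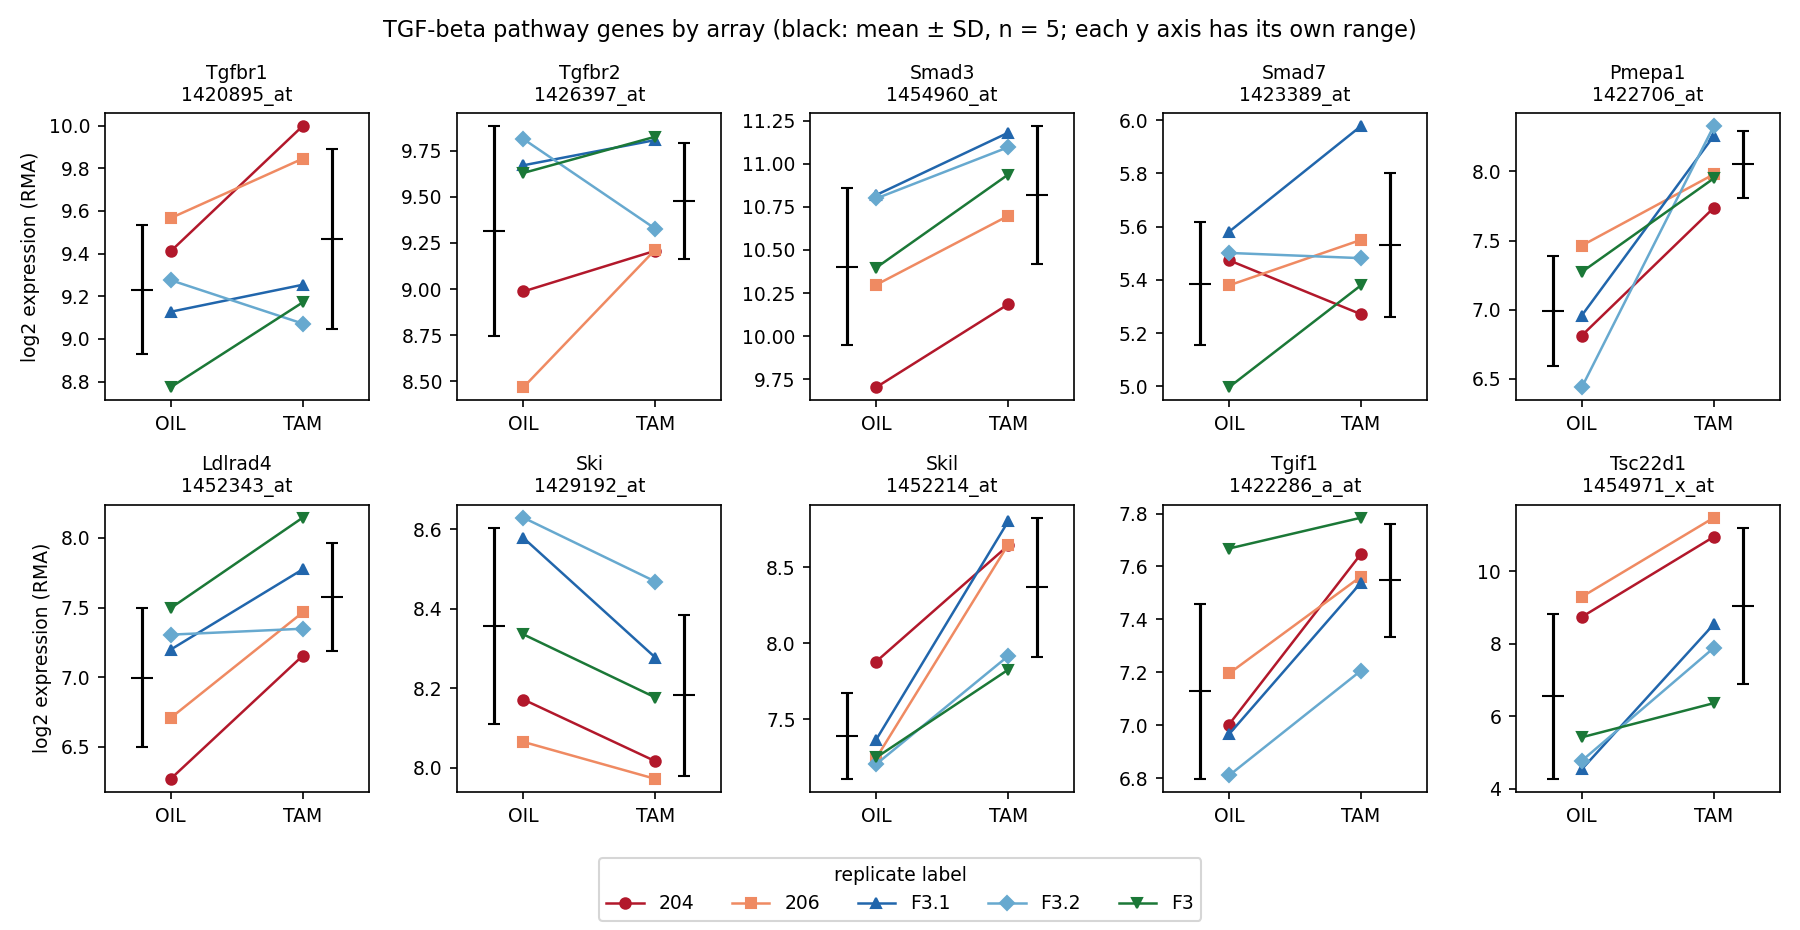
Expression (log2, RMA) of the representative probe set of each of the 10 genes in OIL and TAM, with a line joining arrays of the same replicate label and the mean ± SD of 5 arrays in black; each panel has its own y range. Lines rise for all 5 labels in Smad3, Pmepa1, Ldlrad4, Skil, Tgif1 and Tsc22d1 and fall for all 5 in Ski, and the groups are apart in Pmepa1 alone.

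The receptors differed little between the groups. Tgfbr1 (1420895_at), whose kinase phosphorylates SMADs, was 9.41, 9.57, 9.13, 9.28 and 8.77 in OIL and 10.00, 9.84, 9.25, 9.07 and 9.17 in TAM, in the order 204, 206, F3.1, F3.2 and F3. TAM was higher in 4 labels and lower in F3.2, and the groups overlapped. The means were 9.23 ± 0.30 and 9.47 ± 0.42 (SD, n = 5), a difference of 0.24, or 0.12 without OIL F3. The second bright probe set of Tgfbr1 (1420893_a_at) differed by 0.13.

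Tgfbr2 (1426397_at), which binds the ligand, was 8.99, 8.47, 9.67, 9.81 and 9.63 in OIL and 9.21, 9.21, 9.81, 9.33 and 9.83 in TAM. TAM was higher in 4 labels, by 0.14 to 0.75, and lower by 0.49 in F3.2, and OIL 206 was the lowest array of all. The means were 9.31 ± 0.57 and 9.48 ± 0.31, a difference of 0.16 that became 0.24 without OIL F3 and -0.05 without OIL 206. The other bright probe set (1425444_a_at) differed by 0.04 and was likewise lower in F3.2 alone.

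Smad3, the receptor-activated SMAD that binds DNA, was higher in TAM by a like amount in every label. Its representative probe set (1454960_at) was 9.70, 10.30, 10.82, 10.80 and 10.40 in OIL and 10.18, 10.70, 11.18, 11.10 and 10.94 in TAM, so that the groups overlapped while TAM was higher in each label by 0.30 to 0.54. The means were 10.40 ± 0.46 and 10.82 ± 0.40, a difference of 0.42 (1.33-fold), or 0.41 without OIL F3. The 2 other Smad3 probe sets, 1450471_at and 1450472_s_at, differed by 0.19 and 0.31, each higher in 4 labels and slightly lower in F3.2.

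Inhibitors that act at the receptor or on SMAD proteins gave unequal differences. Smad7, which blocks the type I receptor and recruits ubiquitin ligases to it, was 5.47, 5.38, 5.58, 5.50 and 4.997 in OIL and 5.27, 5.55, 5.98, 5.48 and 5.38 in TAM (1423389_at). TAM was higher in 3 labels and lower in 204 and F3.2. The means were 5.39 ± 0.23 and 5.53 ± 0.27, a difference of 0.15 that was 0.05 without OIL F3, and the second probe set (1443771_x_at) was dim, between 2.34 and 2.76 on every array.

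Pmepa1 encodes a membrane protein that holds SMADs away from the receptor. Its representative probe set (1422706_at) was 6.81, 7.46, 6.96, 6.44 and 7.27 in OIL and 7.74, 7.98, 8.26, 8.33 and 7.95 in TAM. The lowest TAM array (204) lay above the highest OIL array (206). The means were 6.99 ± 0.40 and 8.05 ± 0.24, a difference of 1.06 (2.09-fold), or 1.13 without OIL F3. By label the difference ran from 0.52 in 206 to 1.89 in F3.2.

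A second Pmepa1 probe set (1422705_at) showed the same separation. It was 5.23, 5.83, 4.70, 4.94 and 5.63 in OIL and 6.21, 6.40, 6.11, 6.29 and 6.17 in TAM, a difference of 0.97 (1.96-fold). The TAM arrays lay close together in it (SD 0.11) and the OIL arrays did not (SD 0.46). The third probe set (1452295_at), dim by its mean, differed by 0.33 and was higher in TAM in all 5 labels.

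Ldlrad4, which encodes a related membrane inhibitor of SMAD activation, gave unequal differences at its probe sets. The representative 1452343_at was 6.27, 6.71, 7.20, 7.31 and 7.495 in OIL and 7.15, 7.46, 7.77, 7.35 and 8.14 in TAM. It was higher in TAM by 0.58 to 0.88 in 4 labels and by 0.04 in F3.2, with overlapping groups. The means were 6.996 ± 0.50 and 7.58 ± 0.39, a difference of 0.58 (1.496-fold), or 0.71 without OIL F3.

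A second Ldlrad4 probe set, 1427182_s_at, was 4.93, 5.27, 4.67, 4.57 and 5.58 in OIL and 5.89, 6.14, 6.55, 5.49 and 6.51 in TAM. All but 1 of the TAM arrays, F3.2, lay above every OIL array. Its difference was 1.11 (2.16-fold) and was at least 0.87 in each label. By contrast 1447662_x_at differed by 0.03, with TAM lower in 204 and F3.2, and the dim 1427181_at by 0.46, with every TAM array above every OIL array.

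**Figure D2:**
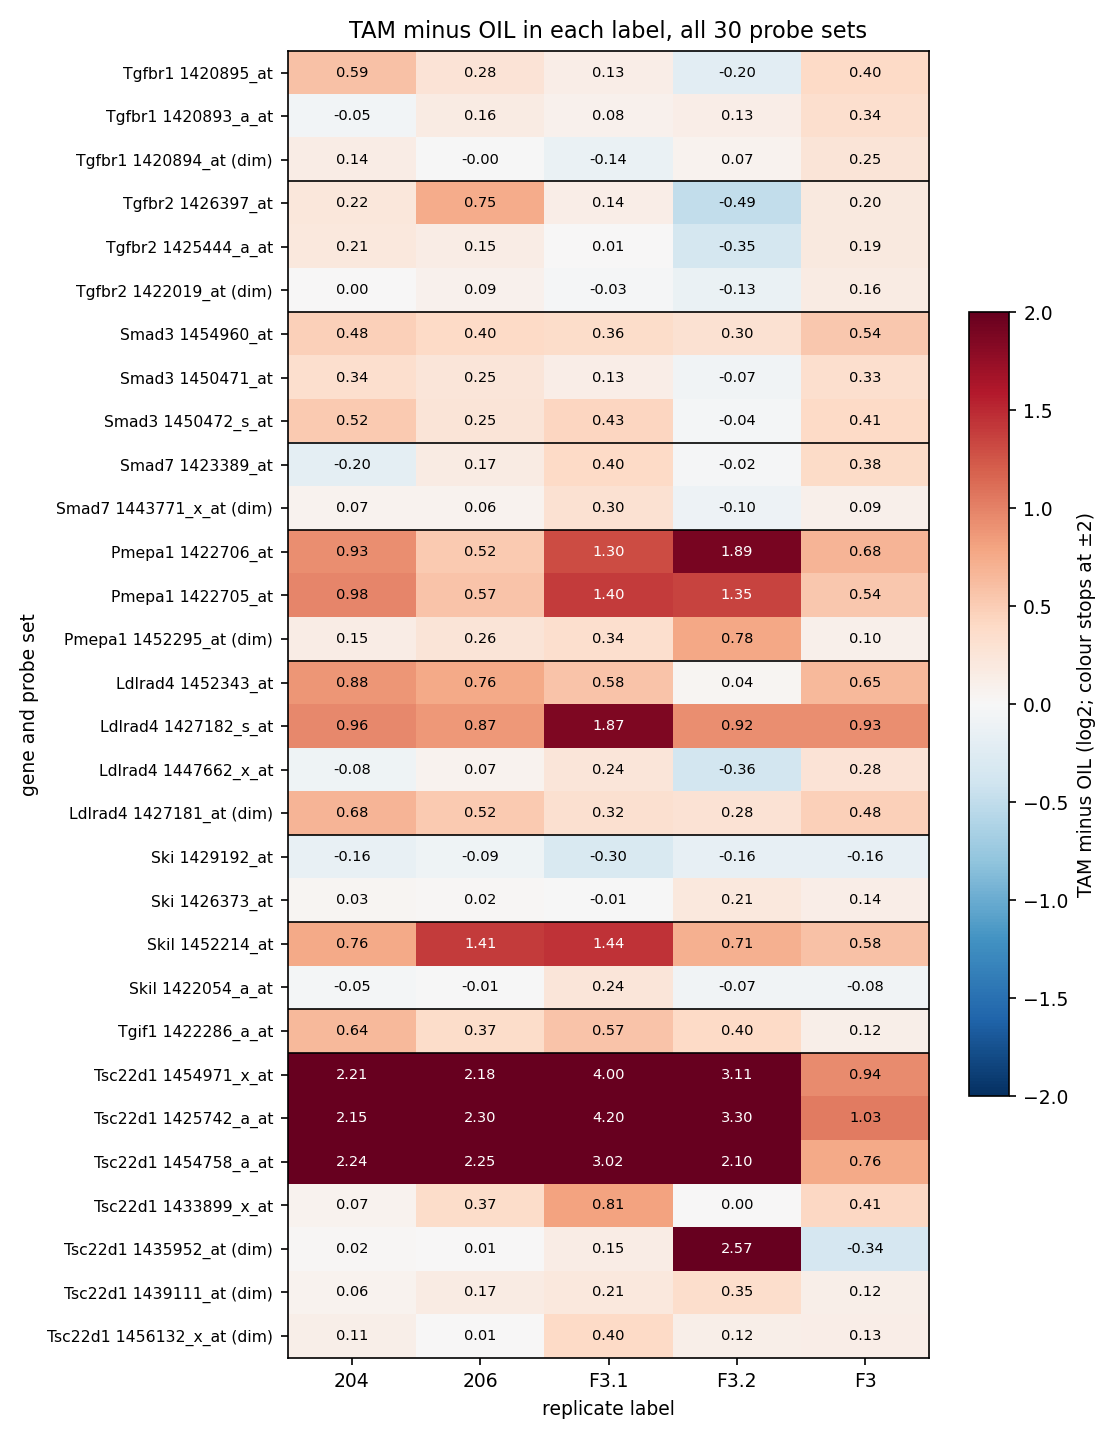
TAM minus OIL (log2) in each replicate label (columns) for all 30 probe sets (rows), grouped by gene; red is higher in TAM, blue lower, and the colour stops at 2 log2 units either way. Pmepa1 1422706_at and 1422705_at, Skil 1452214_at, Ldlrad4 1427182_s_at and 3 probe sets of Tsc22d1 are red by 0.52 or more in every label, further ones are red by less, and the Tgfbr2 probe sets are blue in F3.2.

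The corepressors Ski and Skil (SnoN) bind SMAD complexes and silence their target genes, and their representative probe sets differed with opposite signs. Skil (1452214_at) was 7.88, 7.24, 7.37, 7.20 and 7.25 in OIL and 8.64, 8.65, 8.80, 7.92 and 7.83 in TAM. The groups overlapped only because OIL 204 (7.88) lay just above TAM F3 (7.83). The means were 7.39 ± 0.28 and 8.37 ± 0.46, a difference of 0.98 (1.97-fold), or 0.94 without OIL F3, and by label it was 0.58 to 1.44.

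The other Skil probe set (1422054_a_at) did not share this, at 4.82 ± 0.18 in OIL and 4.83 ± 0.24 in TAM, with TAM higher only in F3.1. Ski (1429192_at) was 8.17, 8.07, 8.58, 8.63 and 8.34 in OIL and 8.02, 7.97, 8.28, 8.47 and 8.18 in TAM. Each label was lower in TAM, by 0.09 to 0.30, while the groups overlapped widely. The means were 8.36 ± 0.25 and 8.18 ± 0.20, a difference of -0.17, or -0.18 without OIL F3, and the second Ski probe set (1426373_at) differed by 0.08 in the other direction. The share of all genes that were lower in TAM in every label was not determined.

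Tgif1 encodes a homeodomain corepressor of SMADs and was read by 1 probe set (1422286_a_at). It was 7.003, 7.20, 6.97, 6.81 and 7.67 in OIL and 7.65, 7.56, 7.54, 7.21 and 7.78 in TAM. Each label was higher in TAM, from 0.12 in F3 to 0.64 in 204, and OIL F3 was the only OIL array above the lowest TAM array. The means were 7.13 ± 0.33 and 7.55 ± 0.21, a difference of 0.42 (1.34-fold), or 0.55 without OIL F3.

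Tsc22d1, first found as a TGF-beta-stimulated leucine zipper gene, showed the largest difference and the largest spread. Its representative probe set (1454971_x_at) was 8.74, 9.29, 4.53, 4.77 and 5.42 in OIL and 10.95, 11.48, 8.54, 7.88 and 6.36 in TAM. The OIL arrays of 204 and 206 lay above 3 TAM arrays, while within each label TAM was higher, by 0.94 in F3 and up to 4.00 in F3.1. The means were 6.55 ± 2.28 and 9.04 ± 2.14, a difference of 2.49 (5.62-fold), or 2.21 without OIL F3. OIL F3.1 (4.53) lay below the limit of 4.59 log2 units used for dim genes, so the size of the difference of 4.00 is uncertain.

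Probe sets 1425742_a_at and 1454758_a_at of Tsc22d1 followed the same order of arrays. The first was 8.37, 8.84, 3.64, 3.93 and 4.61 in OIL and 10.52, 11.15, 7.84, 7.23 and 5.65 in TAM, a difference of 2.60. The second differed by 2.07. In both, OIL F3.1 and OIL F3.2 lay below the limit for dim genes, as did OIL F3 in the second (4.11), so the sizes of the differences in these labels are uncertain.

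The fourth bright probe set of Tsc22d1, 1433899_x_at, differed by less, from 0.00 in F3.2 to 0.81 in F3.1, at 6.18 ± 0.44 in OIL and 6.51 ± 0.40 in TAM (difference 0.33). Of the 3 dim ones, 1435952_at was 3.11 to 3.84 on 9 arrays and 5.98 in TAM F3.2, which was also the highest array in the dim 1439111_at. Which transcripts of the gene each probe set reads was not determined here.

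**Figure D3:**
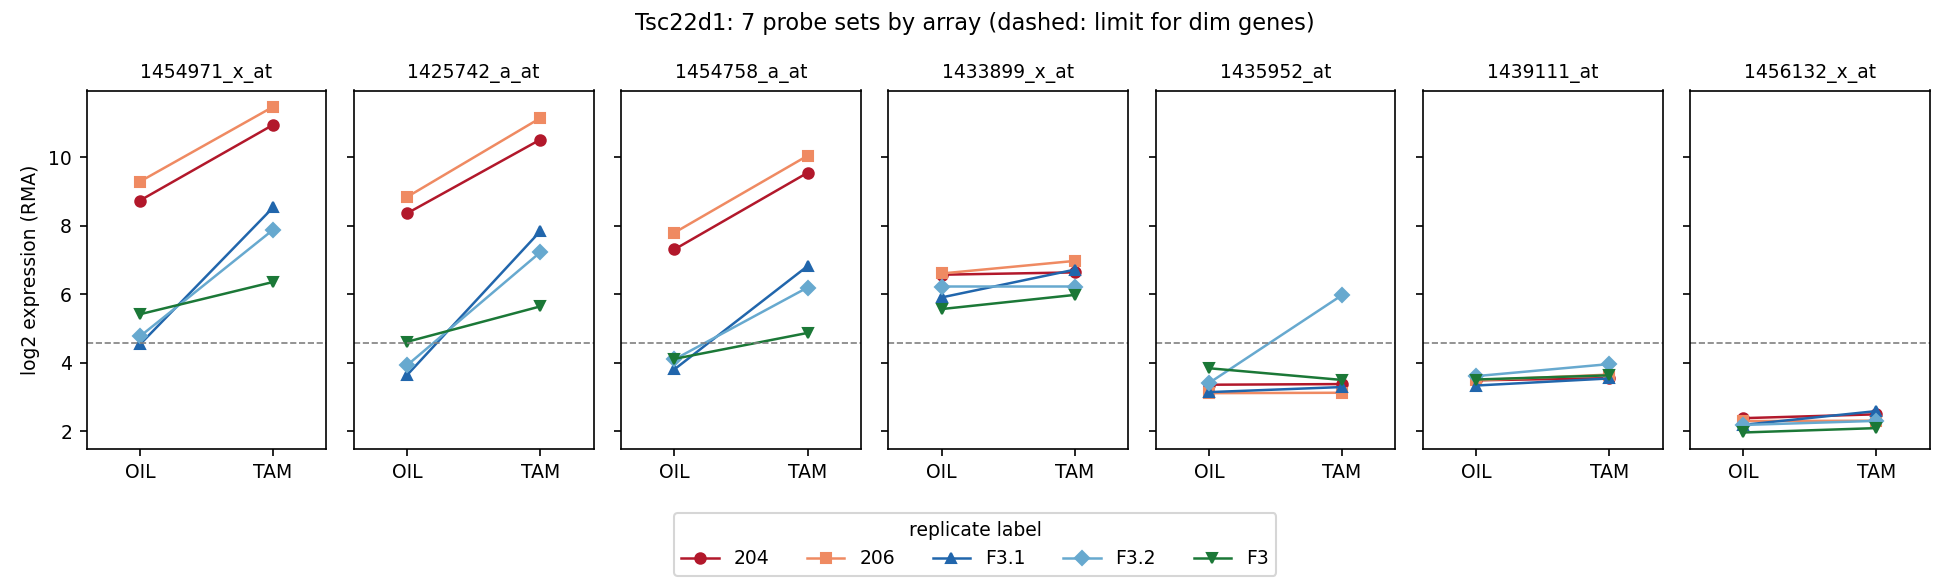
Expression (log2, RMA) of the 7 Tsc22d1 probe sets in OIL and TAM on a common y axis, with a line joining arrays of the same replicate label; the dashed line at 4.59 is the limit used for dim genes. In the first 3 panels labels 204 and 206 start above 7 and all 5 lines rise, and in the fourth they change by 0.00 to 0.81.

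Promoter sequence was at hand from RefSeq (GRCm38.p6) for 6 of the 10 genes, with 15 annotated starts: Tgfbr1, Tgfbr2, Smad3, Ski, Tgif1 and Tsc22d1. The 250 bases before each start were searched on both strands for the letters GTCTAGAC (a palindrome that SMAD proteins bind), CAGAC (the core of the CAGA box), GGAAA (the core that NFAT, the calcineurin-regulated factor, binds) and TGANTCA (bound by AP-1). The 4 upstream stretches shown each hold a match and belong to genes that were higher in TAM in all 5 labels. Not shown are Tgif1 starts 3 and 5 and Tsc22d1 starts 1, 2 and 5, with no match, and Tgif1 starts 2 and 4, with CAGAC. Capitals mark CAGAC or GGAAA, or the same letters on the other strand (GTCTG or TTTCC).
Smad3: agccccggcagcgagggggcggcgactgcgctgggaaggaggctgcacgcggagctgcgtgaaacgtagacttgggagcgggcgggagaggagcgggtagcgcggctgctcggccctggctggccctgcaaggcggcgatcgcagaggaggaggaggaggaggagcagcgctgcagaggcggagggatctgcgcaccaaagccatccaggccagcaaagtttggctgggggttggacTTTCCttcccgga
Tgif1 start 1: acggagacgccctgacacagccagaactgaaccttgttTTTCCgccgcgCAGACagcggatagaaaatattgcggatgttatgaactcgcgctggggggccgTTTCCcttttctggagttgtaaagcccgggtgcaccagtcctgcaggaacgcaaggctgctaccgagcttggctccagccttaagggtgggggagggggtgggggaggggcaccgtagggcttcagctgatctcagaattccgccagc
Tsc22d1 start 3: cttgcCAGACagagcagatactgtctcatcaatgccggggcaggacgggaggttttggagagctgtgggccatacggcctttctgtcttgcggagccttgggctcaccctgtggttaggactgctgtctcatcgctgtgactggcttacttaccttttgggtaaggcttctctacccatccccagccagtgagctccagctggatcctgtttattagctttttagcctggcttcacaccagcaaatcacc
Tsc22d1 start 4: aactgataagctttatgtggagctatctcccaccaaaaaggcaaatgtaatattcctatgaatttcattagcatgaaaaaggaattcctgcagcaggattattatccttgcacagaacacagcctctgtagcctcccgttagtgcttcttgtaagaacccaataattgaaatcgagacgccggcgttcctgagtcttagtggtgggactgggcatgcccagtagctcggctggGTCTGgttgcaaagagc

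These stretches are printed 5′ to 3′ along the gene. Smad3 is on the minus strand (chr9:63757995-63758244) and holds TTTCC at 13 to 9 bases before the start. Tgif1 start 1 is also on the minus strand (chr17:70853533-70853782), with CAGAC at 201 to 197 bases and TTTCC at 212 to 208 and 148 to 144. Tsc22d1 lies on the plus strand, where start 3 (chr14:76488186-76488435) has CAGAC at 245 to 241 bases and start 4 (chr14:76503976-76504225) has GTCTG at 17 to 13.

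Over the 15 starts of these genes, CAGAC was found at 7, against 42.2% of 32851 promoters of the same length. GGAAA was found at 3, against 55.6% of all. GTCTAGAC (0.167% of all) and TGANTCA (6.75% of all) were found at 0. The letters CAGAC and GGAAA are so common that their presence sets no gene apart, and a match is a description of the sequence only.

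Between the label families (204 and 206 against F3 with F3.1 and F3.2) values differed in several of these genes, a contrast that the choice of genes did not use. It was fitted in limma over all 12736 genes, with treatment as a term and the label as a random block, and 6.56% of all genes were called. Of the 10 genes, 4 were called: Tsc22d1 and Tgfbr1 were higher in 204 and 206, and Smad3 and Ski were lower. Label means of the 2 families did not overlap for these 4 or for Tgfbr2 and Ldlrad4. The share of all genes with label means apart was not determined, so this is a description only. Over labels alone 2 against 3 cannot give an exact two-sided permutation p below 0.2.

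Tsc22d1 was 10.11 in 204 and 206 (4 arrays) and 6.25 in the F3 labels (6 arrays), a difference of 3.86 ± 0.48 (SE, limma adjusted p = 0.00164). Every array of 204 and 206 lay above the F3 arrays of its own treatment. Its call held whichever array was left out, with a difference of 3.60 to 4.12, and as the average over its probe sets it was 1.695 (0.00565). Tgfbr1 was 9.70 and 9.11, a difference of 0.59 ± 0.14 (limma adjusted p = 0.0320).

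Smad3 was 10.22 in 204 and 206 and 10.87 in the F3 labels, a difference of -0.65 ± 0.15 (limma adjusted p = 0.0317). Ski was 8.06 and 8.41, a difference of -0.35 ± 0.09 (limma adjusted p = 0.0457). The direction for Smad3 is that of 1454960_at. At 1450471_at the families ran the other way (6.16 and 5.85 in OIL, 6.46 and 5.98 in TAM), and as the average over its probe sets Smad3 differed by -0.14 (limma adjusted p = 0.719) and Ski by -0.27 (0.0596), neither called. Tgfbr1 was still called that way (0.41, 0.0195).

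The calls of Tgfbr1, Smad3 and Ski depended on single arrays. Tgfbr1 lost its call without OIL 206, OIL F3.1, TAM 204, TAM 206 or TAM F3.2 (limma adjusted p up to 0.0976). Smad3 lost it without OIL 204, OIL F3.1, OIL F3.2, TAM 204 or TAM F3.2 (up to 0.0920). Ski kept it only without OIL F3 or TAM F3 (limma adjusted p = 0.0167 and 0.0273).

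The other 6 genes did not pass in this contrast. Tgfbr2 (-0.71 ± 0.19, limma adjusted p = 0.0550) and Ldlrad4 (-0.64 ± 0.19, 0.0726) came nearest, both with lower values in 204 and 206. As the average over their probe sets they differed by -0.29 (limma adjusted p = 0.194) and -0.20 (0.426). At Ldlrad4 1427182_s_at the families were at 5.10 and 4.94 in OIL and at 6.02 and 6.18 in TAM. Pmepa1 was 7.498 and 7.53 in the 2 families, a difference of -0.04 ± 0.24, Tgif1 one of 0.02 ± 0.18 and Smad7 one of -0.07 ± 0.17. Skil differed by 0.38 ± 0.22.

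Whether the TAM minus OIL difference itself differed between the label families was tested as an interaction in limma, without the label as a block. It was called for 0% of all genes, with 346 at an unadjusted p under 0.05. With the label as a block 0 genes were called as well. For the 10 genes the differences by family are a description, with no test, since the differences by label helped to choose them. The mean TAM minus OIL difference was 0.72 in 204 and 206 and 1.29 in the F3 labels for Pmepa1, and 0.44 and 0.40 for Smad3. For Tsc22d1 it was 2.20 in 204 and 206 and 2.69 in the F3 labels, in which the single labels ranged from 0.94 to 4.00.

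**Figure D4:**
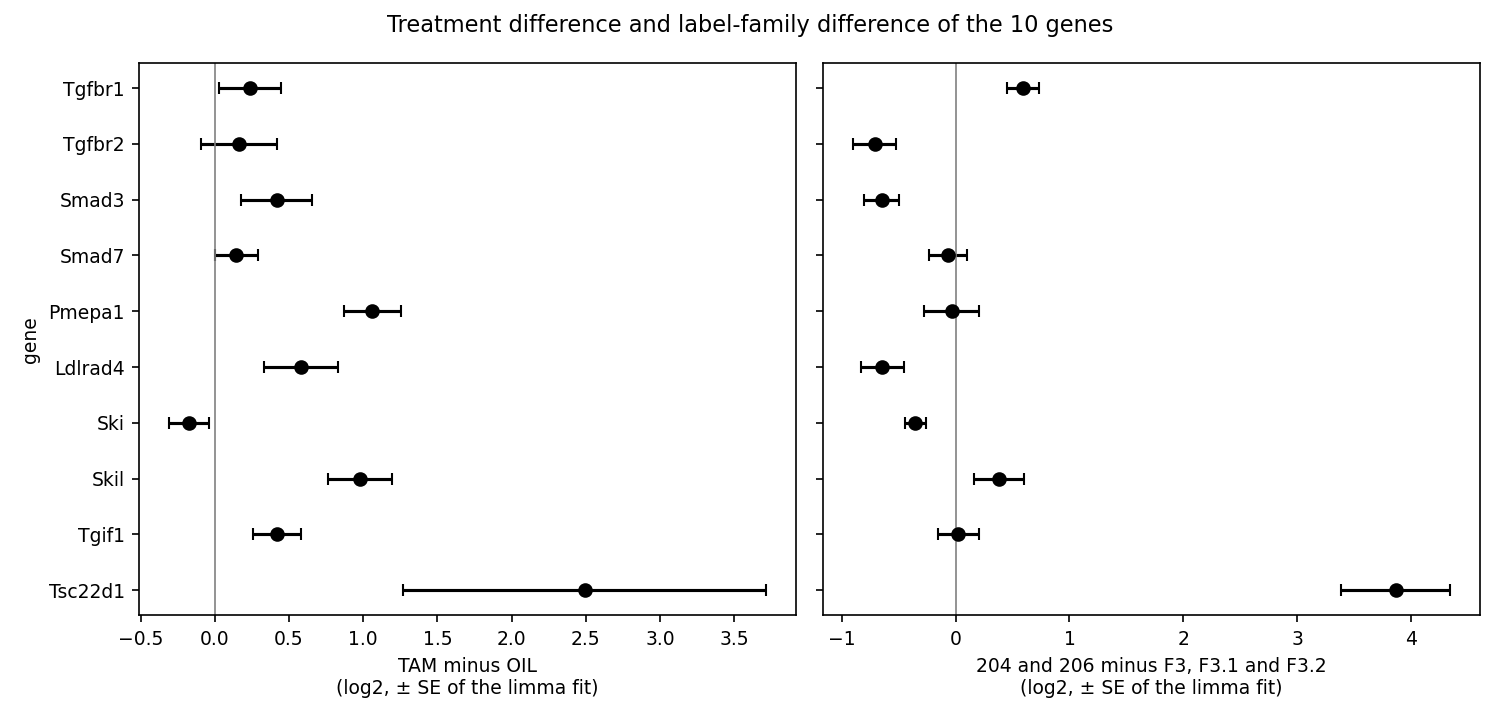
Left, TAM minus OIL, and right, labels 204 and 206 minus labels F3, F3.1 and F3.2, both in log2 with ± SE of the limma fit over 10 arrays, for the 10 genes; the left panel is the contrast that chose the genes. Tsc22d1 lies farthest to the right in both panels, whereas Pmepa1, at 1.06 on the left, is at -0.04 on the right.

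The rest of the pathway was described with 153 genes in 9 lists that hold none of the 10, of which 121 were tested, 27 were dim and 5 were not analysed here. The lists were chosen with earlier results of these data known. Their calls and adjusted p-values in TAM against OIL are therefore a description. Of the 121, 59 were higher and 62 lower in TAM, with a median of -0.01 log2 units, against -0.03 over all genes tested. Limma called 1 of them, the AP-1 subunit Junb, against 0.471% of all genes. With the replicate label as a block it called 7, with 5 higher and 2 lower, against 3.38% of all genes. At an unadjusted p under 0.05 were 16 of the 121 without and 28 with the block, against 1656 and 2847 of all 12736 genes. The counts of single lists below are to be read beside these.

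Among 21 tested genes that TGF-beta is known to induce, 13 were higher and 8 lower (median 0.16). Junb had means of 6.29 ± 0.13 (OIL) and 6.82 ± 0.17 (TAM, SD, n = 5) and was higher in all 5 labels with no overlap (difference 0.53, limma adjusted p = 0.0479, and 0.0116 with the block). Without the block its call held only without OIL F3 or TAM 204 among the fits that left out 1 array, with an adjusted p of up to 0.132 in the others. Called only with the block were the cell cycle inhibitor Cdkn1a (1.78, limma adjusted p = 0.0511 without and 0.00357 with the block), the MAP kinase phosphatase Dusp4 (1.23, 0.106 and 0.0427) and the growth factor Pdgfb (0.55, 0.234 and 0.0430). Another bright probe set differed by 1.32 for Cdkn1a (1421679_a_at) and by 0.20 for Pdgfb (1450413_at). Klf10, an early TGF-beta gene, was 0.57 higher and did not pass, with 1.81 in F3.2 and 0.11 to 0.36 in the other labels.

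Ligands and their activators were tested for 12 genes, of which 3 were higher and 9 lower (median -0.04). Limma called 0 without or with the block (0 at an unadjusted p under 0.05 each time). Tgfb1, the ligand gene itself, was 6.67 ± 0.11 in OIL and 6.83 ± 0.26 in TAM, and the latent binding protein Ltbp4 differed by -0.14. Of 11 other receptors and coreceptors, 5 were higher and 6 lower (median -0.07), and 1 fell with the block.

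That gene was Bambi-ps1, annotated as a pseudogene of the decoy receptor Bambi, which was 7.88, 7.49, 9.48, 9.26 and 9.70 in OIL and 6.02, 5.93, 7.86, 5.75 and 8.01 in TAM. TAM was lower in each label, by 1.56 to 3.51 (difference -2.05, limma adjusted p = 0.179, and 0.0146 with the block). Whether its probe set also reads Bambi was not determined here. The coreceptor Tgfbr3 differed by -0.09 and the activin receptor Acvr2b by 0.31, and neither passed. Another bright probe set of Acvr2b (1439856_at) differed by 0.0013.

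Of 11 other SMADs and SMAD anchors, 2 were higher and 9 lower (median -0.06), and limma called 0 without or with the block (1 at an unadjusted p under 0.05 each time). Smad2, the partner of Smad3 at the receptor, differed by -0.03 (0.02 without OIL F3), the shared Smad4 by -0.07 and the anchor Tgfbrap1 by -0.25. Smad1, which serves bone morphogenetic proteins, was 6.16 ± 2.28 in OIL and 7.07 ± 1.87 in TAM, a spread that followed the label families (3.38 higher in 204 and 206, limma adjusted p = 0.0203). By label Smad1 differed by 3.89 in F3.2, where OIL lay below the limit for dim genes, and by -0.23 to 0.46 in the others. Of 17 genes of ubiquitin and phosphatase control, 10 were higher and 7 lower (median 0.02), and limma called 0 without or with the block (2 and 3 at an unadjusted p under 0.05). The ligases Smurf2 (-0.30) and Rnf111 (0.28) and the deubiquitinase Usp9x (0.44) did not pass. At its other bright probe sets Usp9x differed by 0.01 to 0.33. Rnf111 was higher in TAM by 0.94 in F3.2 and differed by -0.01 to 0.36 in the other labels.

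Nuclear partners of SMADs were higher for 13 and lower for 8 of 21 tested (median 0.10). With the block Foxo1, a forkhead factor that joins SMADs, rose (0.72, limma adjusted p = 0.0116 against 0.209 without), with 0.79 and 0.80 at 2 more of its probe sets and -0.07 at a dim one. Zeb1, a repressor that binds SMADs, fell with the block (-0.47, 0.0294 against 0.0853). At that probe set (1418926_at) and at 1443005_at (-0.48) all TAM arrays lay below all OIL arrays, a pattern whose share over all genes was not determined. The bright 1446127_at differed by -0.01, with overlapping groups. The corepressor Tgif2, a close relative of Tgif1, differed by 0.12, and Runx3 by 0.87 (1.299 without OIL F3) with an SD of 2.21 in OIL. At that Runx3 probe set (1440275_at) the difference was 2.06 in 204 and 206 and 0.08 in the F3 labels (limma adjusted p of the interaction = 0.926), and at its other bright one (1421467_at) the groups differed by 0.01.

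Of 13 genes that TGF-beta is known to repress, 7 were higher and 6 lower (median 0.08), and limma called 0 without or with the block (1 and 5 at an unadjusted p under 0.05). The interleukin-7 receptor gene Il7r (1448575_at) differed by -0.51, being 0.35 higher in TAM in 204 and 206 and lower by 1.08 in the F3 labels (limma adjusted p of the interaction = 0.998). Klf2 differed by 0.49, or 0.76 without OIL F3, and was lower in TAM in 204 and F3.2. The TAK1 branch, which signals beside the SMADs, had 4 higher and 8 lower of 12 (median -0.03), and limma called 0 of them without or with the block (0 and 3 at an unadjusted p under 0.05). Traf6 differed by -0.30 and Rock1 by 0.19. For Traf6 the difference was 0.02 in 204 and 206 and -0.52 in the F3 labels (limma adjusted p of the interaction = 0.998).

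The 3 relatives of Tsc22d1 differed less between the groups. Tsc22d3, a glucocorticoid-induced leucine zipper gene, was 8.90 ± 0.18 in OIL and 9.30 ± 0.34 in TAM and higher in all 5 labels (difference 0.40, limma adjusted p = 0.317, and 0.0896 with the block). Tsc22d2 differed by 0.32 and Tsc22d4 by -0.25. For Tsc22d2 the difference was -0.05 in 204 and 206 and 0.57 in the F3 labels (limma adjusted p of the interaction = 0.998). Limma called 0 of the 3 without or with the block (2 at an unadjusted p under 0.05 each time).

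**Figure D5:**
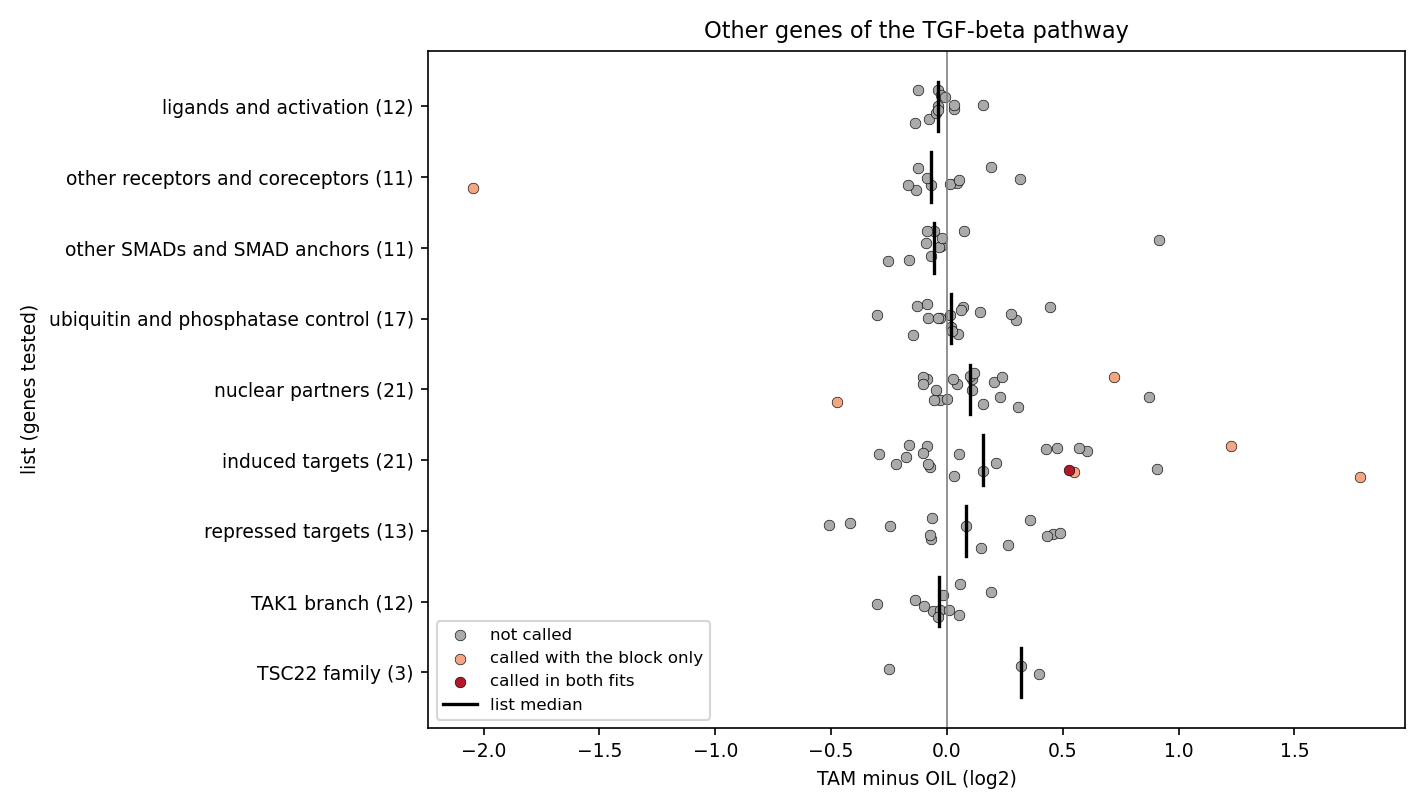
TAM minus OIL (log2) of each tested gene of 9 further TGF-beta pathway lists; grey points were not called, orange ones were called only with the replicate label as a block, the red one (Junb) in both fits, and black bars are list medians. Medians lie between -0.07 and 0.32, and the colored points are Bambi-ps1, Foxo1, Zeb1, Junb, Cdkn1a, Dusp4 and Pdgfb.

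Between the label families, limma called 11 of the 121 pathway genes, 5 higher and 6 lower in 204 and 206, against 6.56% of all genes. Besides Smad1, the largest were the collagen Col1a2 (3.11, limma adjusted p = 0.0371) and Runx3 (-3.05, 0.00516). Foxo1 (-0.66) and Tgif2 (0.41) were also among them.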

How the data were processed

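Expression arrays were measured on 10 RNA samples, 5 TAM and 5 OIL. The authors deposited log2 values of RMA, per the submitters' processing notes (version not given in the sources used here). This method subtracts background, equalizes arrays by quantiles and summarises each probe set, so a shift common to all genes is removed. Array medians lay between 5.07 and 5.13. Arrays have no read depth, and their number limits the precision.

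Probe sets were named by the platform annotation: 34958 had 1 symbol, 932 several (left unnamed) and 9211 none listed. Symbols were updated by Entrez ID with the RefSeq table of GRCm38.p6 (34754 matched). Of a gene's probe sets the one of highest mean stood for it. The lowest 30% of 18194 genes by that mean, under 4.59 log2 units, were left out as dim, which left 12736. Limma 3.58.1 (lmFit and eBayes) was run in R 4.3.3, tables were read by data.table (version 1.17.8), and genes were called at a Benjamini-Hochberg adjusted p under 0.05 over all genes tested. TAM against OIL was fitted without a block (8 residual degrees of freedom), and the replicate label as a fixed block was the alternative (4 degrees). With F3.1 and F3.2 taken without the last number of the sample names, which differs between groups, arrays of a label deviated together (r was 0.80 in F3, 0.76 in 204, 0.75 in 206, 0.58 in F3.1 and 0.18 in F3.2, each over the limit of 0.1). Only group means were removed before this correlation, so it also holds the difference between label families and cannot by itself show pairing within a family. Arrays of 204, 206 and F3 and OIL F3.1 had their best match in their own label, but TAM F3.1, TAM F3.2 and OIL F3.2 in a different one. Pairing thus rests on the sample names, least surely for F3.1 and F3.2. Comparisons within a label and fits with the block depend on it. Label families were fitted with the label as a random block (duplicateCorrelation, correlation 0.28).

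The genes, pathway lists, marker lists and tests were chosen with earlier results of these data known. Named were all 10 genes with every probe set, each pathway gene called in either fit, the 2 tested genes of each list with the largest difference, and Tgfb1, Smad2, Smad4, Tgfbr3, Smurf2, Rnf111, Tgif2, Klf10, Tsc22d3, Tsc22d4 and Ppp3r1, with a further gene that is not reported here. Alternatives were the block, other filters on dim genes, other uses of probe sets, other normalizations, eBayes with trend and robust, leaving out each array, and OIL F3.1 and OIL F3.2 averaged. The fits were tested on simulated data. The marker lists not given with the results summed, in OIL and in TAM, to 242 to 275 and 232 to 258 (megakaryocyte), 263 to 450 and 386 to 613 (erythroid), 130 to 149 and 119 to 130 (B lineage), 73.5 to 86.1 and 66.0 to 84.8 (NK cell) and 320 to 407 and 280 to 356 (endothelial), on the linear scale.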

Additional observations from a re-analysis of the deposited data

Results flagged for a closer look

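In 5 of 60 groups of 5 arrays, over the 30 probe sets in OIL and in TAM, 1 array lay far from the other 4, by a gap of over 0.71 of the whole range (Dixon's critical value), and chance gives about 1 in 20. Skil (1452214_at) was 7.88 in OIL 204, above 7.20 to 7.37 on the other OIL arrays, and it is this array that made the groups overlap. Ski (1426373_at) was 7.60 in OIL F3, above 7.15 to 7.19 on the others. Ldlrad4 (1427181_at, dim) was 2.60 in OIL 204, below 2.95 to 3.04. Tsc22d1 had 2 such groups, both with TAM F3.2 highest and both in dim probe sets: 5.98 in 1435952_at, against 3.12 to 3.50, and 3.96 in 1439111_at, against 3.54 to 3.65.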

How the results depend on the processing

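For the 10 genes, TAM minus OIL kept its direction in each alternative run (18 each, and 16 for Smad7), except for Tgfbr2 (-0.05 without OIL 206). It ranged from 1.19 to 3.18 for Tsc22d1, 0.79 to 1.18 for Pmepa1, 0.49 to 1.12 for Skil, 0.40 to 0.71 for Ldlrad4, 0.24 to 0.57 for Smad3, 0.34 to 0.55 for Tgif1 and -0.25 to -0.05 for Ski. The lowest values of Tsc22d1, Pmepa1 and Skil came with the mean of all probe sets, which includes those with smaller differences. The block, the filters on dim genes and eBayes with trend and robust cannot change these differences, so such runs say nothing on their direction. Since the genes were chosen by this contrast, the kept direction is a description only. Genes called by limma in TAM against OIL, 60 in the main setting, numbered 431 with the replicate block, 26 with the mean of all probe sets, 10 with OIL F3.1 and OIL F3.2 averaged, and 8 to 54 with 1 array left out. The arrays whose loss moved it most were OIL F3.1 (8), OIL F3.2 (10), OIL 204 (19), TAM F3.1 (24), TAM 206 (28) and TAM 204 (36). Called pathway genes, 1 in the main setting, were 7 with the block, 2 with the lowest 50% of genes left out, 0 to 1 with 1 array left out, and 0 with no filter on dim genes, the mean of all probe sets, each probe set, trend and robust, or the averaged arrays. Genes called between label families, 835 in the main setting, were 1507 with no replicate block, 356 with the averaged arrays and 403 to 1468 with 1 array left out. Of the 10 genes 4 were called there, against 2 with the mean of all probe sets, 1 with the averaged arrays and 1 to 5 with 1 array left out, and Tsc22d1 was among them each time. The interaction, with 0 calls, had 0 to 1 with 1 array left out. The cause of these shifts was not tested. Dim probe sets, with signal near background, limit what the fold of Tsc22d1 in the F3 labels can show.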
